A study of Mus musculus with 26 samples.

Results

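The clustered protocadherins (Pcdh) are cell-surface adhesion proteins encoded on mouse chromosome 18 in 3 neighbouring gene clusters named alpha, beta and gamma. All genes of GENCODE release M21 whose symbols start with Pcdha, Pcdhb or Pcdhg followed by a letter or number were taken as members, which gave 58 of the 53801 genes in the RNA-Seq files. These were 14 alpha genes, 22 beta genes and 22 gamma genes, all on the plus strand of chr18:36930184-37841873 (mm10, also named GRCm38), a span of 912 kb. The symbol Pcdha11 is carried by 2 gene identifiers, ENSMUSG00000007440 and ENSMUSG00000102206, and Pcdhgb8 is annotated as a polymorphic pseudogene.

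Each alpha and gamma gene has a variable first exon with its own promoter, which encodes the extracellular and transmembrane part and is spliced to constant exons shared by its cluster. Beta genes consist of a single large exon and have no constant part. Protocadherin isoforms bind like isoforms on the neighbouring cell, and neurons use different isoform sets for self-recognition of their processes. The C-type isoforms (Pcdhac1, Pcdhac2, Pcdhgc3, Pcdhgc4 and Pcdhgc5) differ in sequence from the other isoforms of their clusters. Promoter choice is known to involve CTCF and cohesin, and silent promoters are known to carry DNA methylation and repressive histone marks. Among these marks is H3K27me3, which is deposited by the Polycomb complex PRC2 through its catalytic subunit EZH2.

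The study asked what the contacts of the chromatin remodeler ATRX with RNA do for its position on chromatin and for PRC2. All groups were female mouse embryonic fibroblasts (MEFs) in culture, with 2 libraries per group. WT cells had unaltered ATRX. ATRXΔRBR cells carried a CRISPR deletion of the RNA-binding region of ATRX and were a single clone, so that the deletion and differences between clones cannot be told apart. ATRX KD cells expressed an shRNA against Atrx and were selected with puromycin. CUT&RUN, which releases and sequences the chromatin fragments bound by an antibody, gave 16 peak lists. The lists for EZH2 and H3K27me3 covered every genotype, and those for ATRX itself WT and ATRXΔRBR. RNA-Seq of poly-A RNA gave 6 libraries, described as biological replicates.

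Each RNA-Seq library held between 9051693 and 21723647 estimated counts. Levels of a gene across libraries are given as CPM, which are counts scaled to a common library size with TMM. For Atrx itself they were 633 and 434 in WT cells, 411 and 550 under the knockdown, and 371 and 312 with the deletion. With a log2 fold change of −0.15 and an adjusted p of 0.605 (quasi-likelihood test of edgeR, Benjamini-Hochberg adjustment), Atrx RNA was not detectably lower under the knockdown, and the mean TPM was higher (log2 ratio 1.17 with a pseudocount of 1). By western blot, the paper reports ATRX protein as depleted in its knockdown MEF lines. Protein is not part of the data used here. Because of the RNA values, these libraries are called the libraries labelled ATRX KD. WT and ATRXΔRBR raw files carry the name of the same sequencing run, and those of the knockdown carry none and are named differently, so that knockdown and batch cannot be told apart. Of 8 fibroblast markers 7 had reads, with a summed level between 10985 and 18573 CPM over the 6 libraries, and Thy1 was at 0 counts in all of them. The summed neuron markers lay between 51.8 and 67.2 CPM in WT, 43.5 and 57.1 in ATRXΔRBR cells and 105 and 111 in the libraries labelled ATRX KD. Most of these counts came from Map2, and the neuron-defining Rbfox3 and Snap25 were at 0 counts in every library.

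Expression of the clusters in MEFs was unequal. The alpha genes were close to silent: 11 of 14 had 0 counts in all 6 libraries, and the summed alpha counts were 0 and 1 in WT, 1 and 0 in ATRXΔRBR cells and 1 and 11 in the libraries labelled ATRX KD. A count of 0 allows up to 3 counts, or between 0.138 and 0.331 CPM depending on the library, and covers counting error only. The few alpha reads were assigned to Pcdha2, Pcdha4 and Pcdha5. Both alpha C-types, Pcdhac1 and Pcdhac2, were at 0 counts throughout.

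In the beta cluster, 21 of 22 genes had at least 1 count in some library, and Pcdhb2 had none. Levels were higher at its 3′ end: in WT each gene from Pcdhb16 to Pcdhb22 had a higher mean than every gene from Pcdhb1 to Pcdhb15. Compared per length as TPM (transcript abundance scaled to length and library total), Pcdhb22 had the highest level, with 9.24 and 11.8 in WT, 13.6 and 14.8 in the ATRXΔRBR libraries and 10.7 and 8.96 in the libraries labelled ATRX KD. In WT it was followed by Pcdhb20 (mean TPM 4.86 ± 0, SD, n = 2, both libraries rounding to the same value), Pcdhb17 (4.64 ± 0.594) and Pcdhb21 (3.84 ± 1.61), which did not differ from each other beyond their spread. Pcdhb18 had 2.3 ± 0.728 TPM in WT, Pcdhb16 1.66 ± 0.523 and Pcdhb5, the highest of the genes further upstream, 0.975 ± 0.474.

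Gamma RNA was dominated by a C-type gene. Pcdhgc3 had 49.1 and 61 TPM in WT, 77.8 and 55 in ATRXΔRBR cells, and 175 and 177 in the libraries labelled ATRX KD. The A-type gene with the highest WT level was Pcdhga7 (1.98 ± 0.587 TPM in WT), and Pcdhgb8 led the B-types (3.1 ± 0.615). All 22 gamma genes had reads, but each shared between 27.8% and 66.8% of its exon bases with other members, against 38% to 54.9% for alpha genes and at most 9.67% for beta genes, where Pcdhb21 and Pcdhb22 overlap. RSEM, the authors' counting program, divides reads of shared exons between genes by estimation, as it does reads that map to several similar beta genes. Values of single gamma genes are therefore less certain than the sum over the cluster.

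Libraries of the same genotype disagreed most for Pcdhgc4, a C-type gene with 57.5 and 3.76 CPM in WT, 5.46 and 43.8 in ATRXΔRBR cells and 3.82 and 2.36 in the libraries labelled ATRX KD. WT and ATRXΔRBR thus each held a high and a low library. The gene length in the RSEM output for Pcdhgc4 was between 2282 and 2502 bases in WT and ATRXΔRBR, against 5024 and 4221 in the libraries labelled ATRX KD. The sum of Pcdhgc3 and Pcdhgc4 was 183 and 143 CPM in WT and 175 and 177 in ATRXΔRBR cells. In the libraries labelled ATRX KD it was 364 and 375. Pcdhgc3 alone had 125 and 140, 170 and 133, and 361 and 372 CPM, in the same order. Between replicates the sum thus lay further apart than Pcdhgc3 alone in WT, and closer together in ATRXΔRBR.

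**Figure D1:**
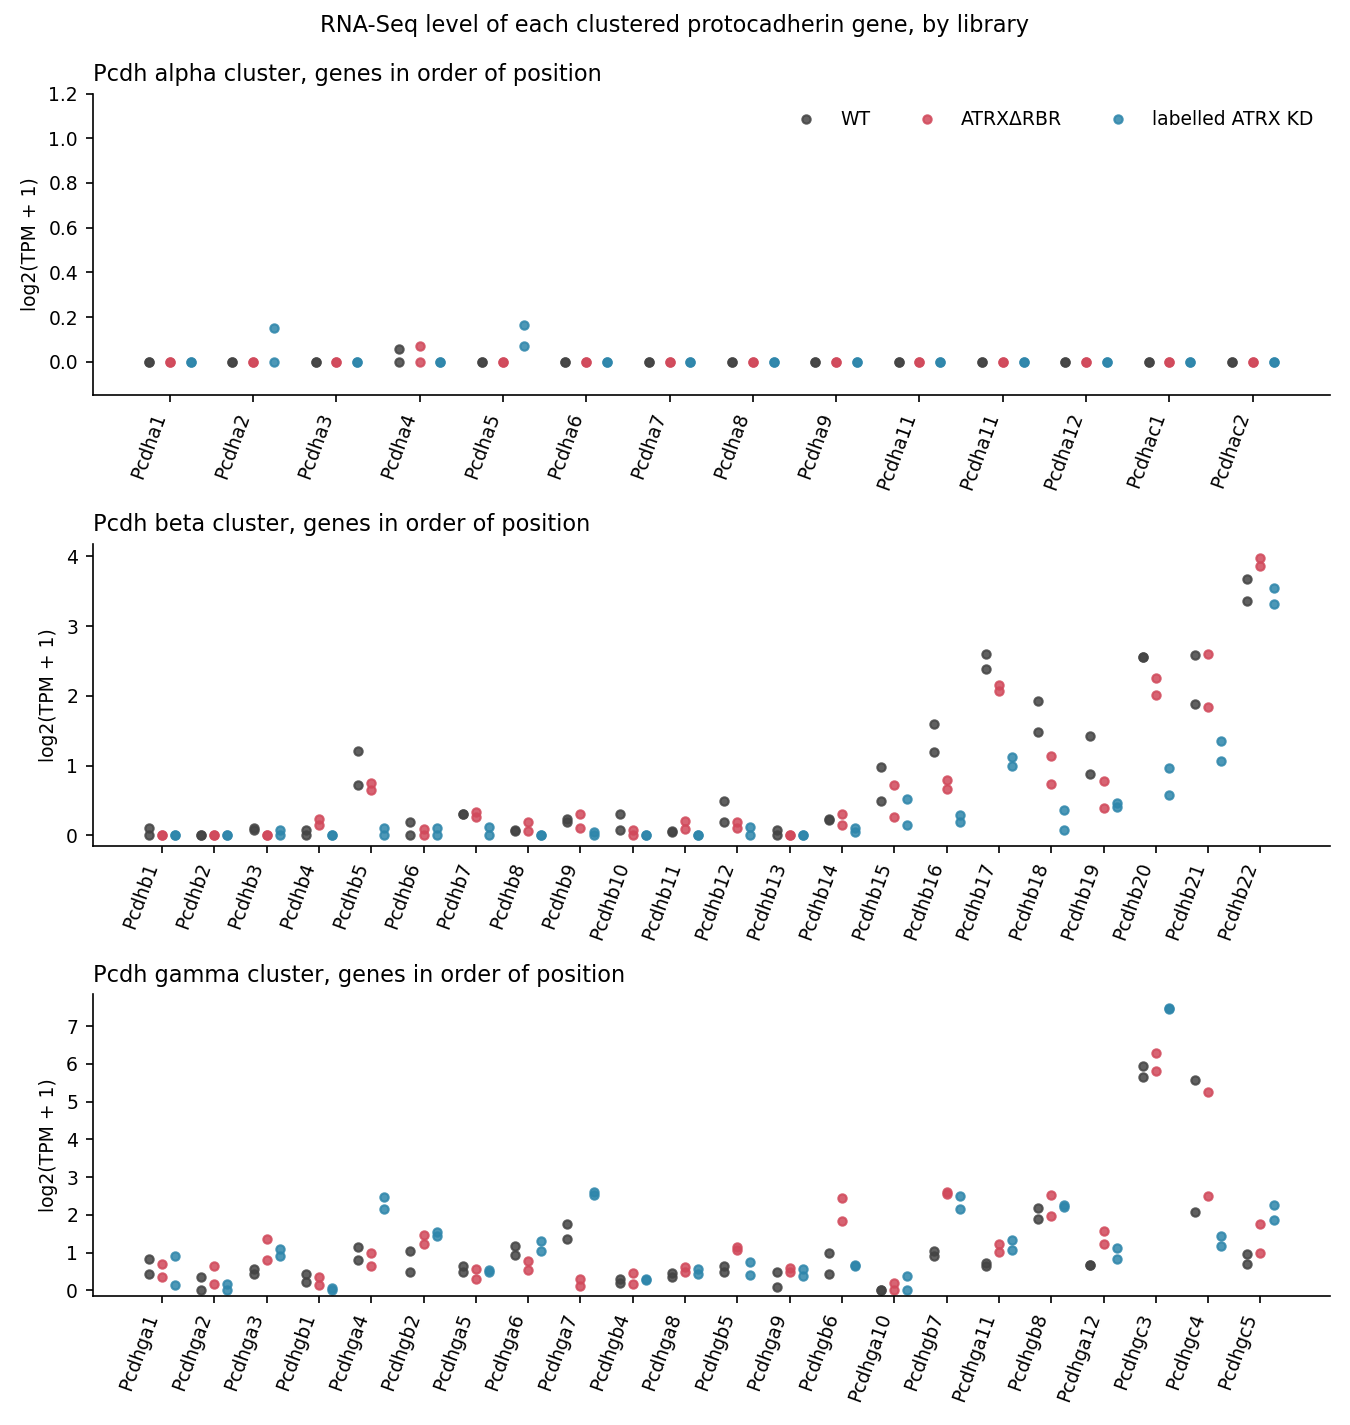
Level of every member in each RNA-Seq library as log2(TPM + 1), with genes in order of position along the horizontal axis and 1 point per library (2 per genotype). Alpha genes lie at or near 0, beta levels are highest from Pcdhb16 to Pcdhb22, and Pcdhgc3 stands above all other gamma genes.

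ATRXΔRBR against WT asks what removal of the RNA-binding region does to these genes. Pcdhgb7 and Pcdhgb6, B-type gamma isoforms, rose 5.03-fold and 5.05-fold, and the A-type Pcdhga7 fell to 0.1 times its WT level. No beta gene passed the test, although Pcdhb16 and Pcdhb18 did so in 4 of 11 alternative fits each, and no alpha gene had enough reads to be tested. Of the 58 members, 34 summed to over 10 counts in the 4 libraries and were tested, and 2 were called higher and 1 lower. Over all 16334 genes tested, 6.85% were called, 2.79% higher and 4.07% lower. DESeq2 called the same 3 members, and 6.88% of all genes. CPM values did not overlap between groups and were higher in ATRXΔRBR at 10 members, against 23.2% of all genes, and lower at 9, against 26.4%.

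Pcdhgb7 had 2.22 and 2.42 CPM in WT and 11.2 and 12 in ATRXΔRBR. Its groups were far apart and close within themselves, with a log2 fold change of 2.33 (SE, the standard error, 0.26 and adjusted p = 0.00211, by edgeR with Benjamini-Hochberg adjustment here and for the other adjusted p-values). Pcdhgb6 had 0.918 and 2.25 CPM in WT and 9.66 and 6.32 in ATRXΔRBR. It rose by 2.34 on the log2 scale (SE 0.45, adjusted p = 0.0203). Pcdhga7 had 3.59 and 5.01 CPM in WT and 0.21 and 0.582 in ATRXΔRBR, which is 2 and 8 counts. It fell by 3.32 on the log2 scale (SE 0.51, adjusted p = 0.00765). In all 10 or 11 alternative fits that tested them, these 3 genes kept their direction and stayed below an adjusted p of 0.05.

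The 3 called genes lie within the A- and B-type part of the gamma cluster, which as a group had 26.2 and 36.7 CPM in WT and 59.1 and 45.7 in ATRXΔRBR, a ratio of 1.67. The C-type part had 185 and 146 CPM in WT and 181 and 180 in ATRXΔRBR. Pcdhgc3 was not called (log2 fold change 0.2, SE 0.19, adjusted p = 0.618). Of the A- and B-types that were not called, Pcdhga12 had the smallest adjusted p (0.0636), with 1.38 and 1.5 CPM in WT and 4.41 and 3.27 in ATRXΔRBR. Reads of the shared exons cannot be separated here from reads of each gene's own first exon.

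Among beta genes, 13 were tested, of which 11 had log2 fold changes below 0 and 0 were called (edgeR, with 5 at an unadjusted p under 0.05 against 20.6% of all genes, and 0 called by DESeq2). In 6 of them the lower ATRXΔRBR values did not overlap those of WT, against 26.4% of all genes tested. Pcdhb16 had 3.67 and 5.18 CPM in WT and 1.79 and 1.6 in ATRXΔRBR (log2 fold change −1.38, SE 0.36, adjusted p = 0.0633). Pcdhb18 had 4.89 and 6.93 CPM in WT and 2.84 and 1.74 in ATRXΔRBR (log2 fold change −1.38, SE 0.37, adjusted p = 0.0697). Pcdhb22, the gene at the 3′ end of the cluster, had 25.8 and 26 CPM in WT and 33.7 and 30.9 in ATRXΔRBR (log2 fold change 0.33, SE 0.18, adjusted p = 0.352). Summed from Pcdhb16 to Pcdhb21, beta RNA was 38.9 and 49.4 CPM in WT and 32 and 24.1 in ATRXΔRBR.

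The libraries labelled ATRX KD against WT gave lower beta calls and mostly higher gamma calls. Beta RNA fell at 7 genes from Pcdhb5 to Pcdhb21, while Pcdhb22 was not called. In the gamma cluster Pcdhgc3, the most abundant member, rose 2.76-fold, and Pcdhga4, Pcdhga7, Pcdhgb7 and Pcdhgc5 also rose, while Pcdhgc4 was called lower and 15 of the 21 gamma genes tested were not called. In all, 33 of the 58 members were tested, 5 were called higher and 8 lower. Over all 16785 genes tested, 33% were called, 15.2% higher and 17.8% lower. At 39.4% the share of members called was near this background. At an unadjusted p under 0.05 there were 18 members, against 44.4% of all genes, and DESeq2 called 12 members, against 28.7%.

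All 12 beta genes tested had log2 fold changes below 0. Pcdhb17 had 10.7 and 11.5 CPM in WT and 2.4 and 2.08 in the libraries labelled ATRX KD, a fall by 2.33 on the log2 scale (SE 0.24, adjusted p = 0.000773). Pcdhb20 had 9.41 and 8.43 CPM in WT and 0.764 and 1.53 in the libraries labelled ATRX KD, and fell by 2.85 on the log2 scale (SE 0.34, adjusted p = 0.00138). The genes next to them also fell. Pcdhb16, with 3 and 11 counts in the libraries labelled ATRX KD, fell by 3.29 on the log2 scale (SE 0.43, adjusted p = 0.00194). Pcdhb18, with 1 and 14 counts there, fell by 3.66 on the log2 scale (SE 0.53, adjusted p = 0.00297). Pcdhb19 fell by 2.02 (SE 0.41, adjusted p = 0.00952) and Pcdhb21 by 1.79 (SE 0.33, adjusted p = 0.00728). All 6 genes from Pcdhb16 to Pcdhb21 were thus called, and in none did the groups overlap.

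Upstream in the cluster, Pcdhb5 had 16 and 27 counts in WT and 1 and 0 in the libraries labelled ATRX KD. The ratio of its counts per library size was 0.0189 (exact 95% counting interval 0.000469 to 0.111), and its adjusted p was 0.00729. Of the 12 beta genes tested, 11 had no overlap and were lower, against 35.8% of all genes tested. The sum from Pcdhb16 to Pcdhb21 fell from 44.1 ± 7.37 CPM (SD, n = 2) to 8.06 ± 0.13, a ratio of 0.182, and that from Pcdhb1 to Pcdhb15 from 5.29 ± 1.85 to 0.838 ± 0.203. Pcdhb22 broke with its neighbours, at 25.8 and 26 CPM in WT and 27.1 and 24.5 in the libraries labelled ATRX KD (log2 fold change −0.02, SE 0.14, adjusted p = 0.94).

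Pcdhgc3 had 125 and 140 CPM in WT and 361 and 372 in the libraries labelled ATRX KD, a log2 fold change of 1.46 (SE 0.12, adjusted p = 0.000338). Pcdhgc5, the last variable exon before the constant exons, had 1.91 and 2.51 CPM in WT and 5.89 and 8.38 in the libraries labelled ATRX KD (log2 fold change 1.71, SE 0.31, adjusted p = 0.00638). Among the other called gamma genes, Pcdhga4 rose by 2.01 (SE 0.39, adjusted p = 0.00824), Pcdhgb7 by 1.86 (SE 0.27, adjusted p = 0.00313) and Pcdhga7 by 1.15 (SE 0.25, adjusted p = 0.0133) on the log2 scale. Pcdhgc4 was called lower (log2 fold change −3.4, SE 1.09, adjusted p = 0.0494) although its groups overlapped, and the call was lost in 4 of 11 alternative fits, with an adjusted p of up to 0.461. The A- and B-type genes as a sum had 54.5 and 49.2 CPM against 26.2 and 36.7 in WT, and the whole gamma cluster 425 and 432 CPM against 211 and 182. Of the gamma sum, Pcdhgc3 alone made up 84.9% and 86.1% in the libraries labelled ATRX KD, and the median log2 fold change over the gamma genes tested was 0.16.

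Marker genes also moved in both comparisons with WT. In ATRXΔRBR the neuron marker Gap43 had 104 and 54 counts in WT and 0 in both ATRXΔRBR libraries (adjusted p = 0.00203 by edgeR). Stmn2, also a neuron marker, had 8 in each WT library and 0 in both ATRXΔRBR libraries (adjusted p = 0.0456 by edgeR). Of 7 fibroblast markers tested in ATRXΔRBR, edgeR called Col3a1 alone, which was lower (adjusted p = 0.0225), and 6 had log2 fold changes above 0. The summed fibroblast markers had 15091 and 10985 CPM in WT and 18573 and 18023 in ATRXΔRBR. The endothelial marker Pecam1 had 1.53 and 1.75 CPM in WT and 5.36 and 3.85 in ATRXΔRBR (adjusted p = 0.0477), and was at 0 counts in the libraries labelled ATRX KD, while Cdh5 was at 0 in all 6. The epithelial marker Cdh1, at 0.841 and 0.835 CPM in WT, was called lower in the libraries labelled ATRX KD (adjusted p = 0.0203). In those libraries, of the 7 tested fibroblast markers, 2 were called higher and 1 lower, and the collagen gene Col3a1 had 71.7 and 61.2 CPM in WT, 35.9 and 34.3 in ATRXΔRBR cells and 0.436 and 0.555 in the libraries labelled ATRX KD. Of 5 tested neuron markers, 3 were called lower and 1 (Map2) higher. The part of such differences between the cultures in the protocadherin values was not tested. In these bulk samples, fewer cells of a type and less RNA per cell cannot be told apart.

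**Figure D2:**
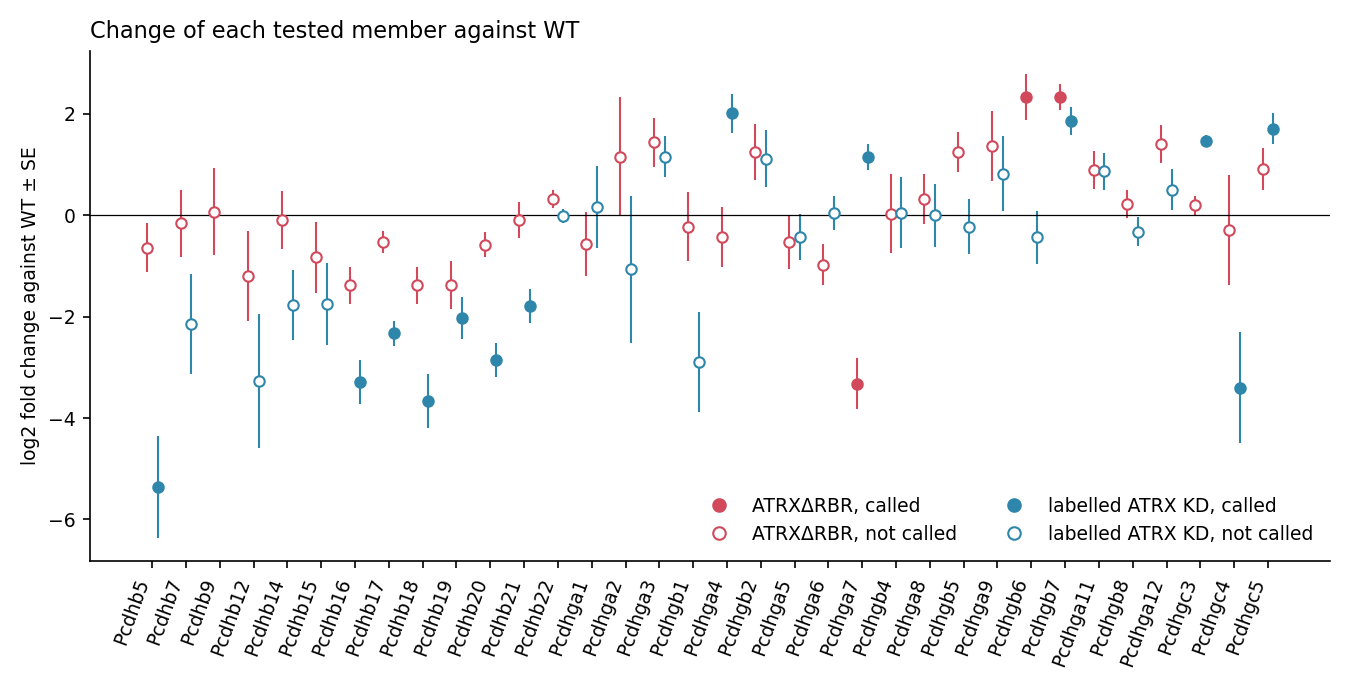
Log2 fold change against WT with its standard error (vertical axis) for each member tested, in order of position, in ATRXΔRBR and in the libraries labelled ATRX KD. Filled points have an adjusted p under 0.05. From Pcdhb16 to Pcdhb21 the values in the libraries labelled ATRX KD lie between −3.66 and −1.79, and Pcdhga7 has opposite signs in the groups.

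**Figure D3:**
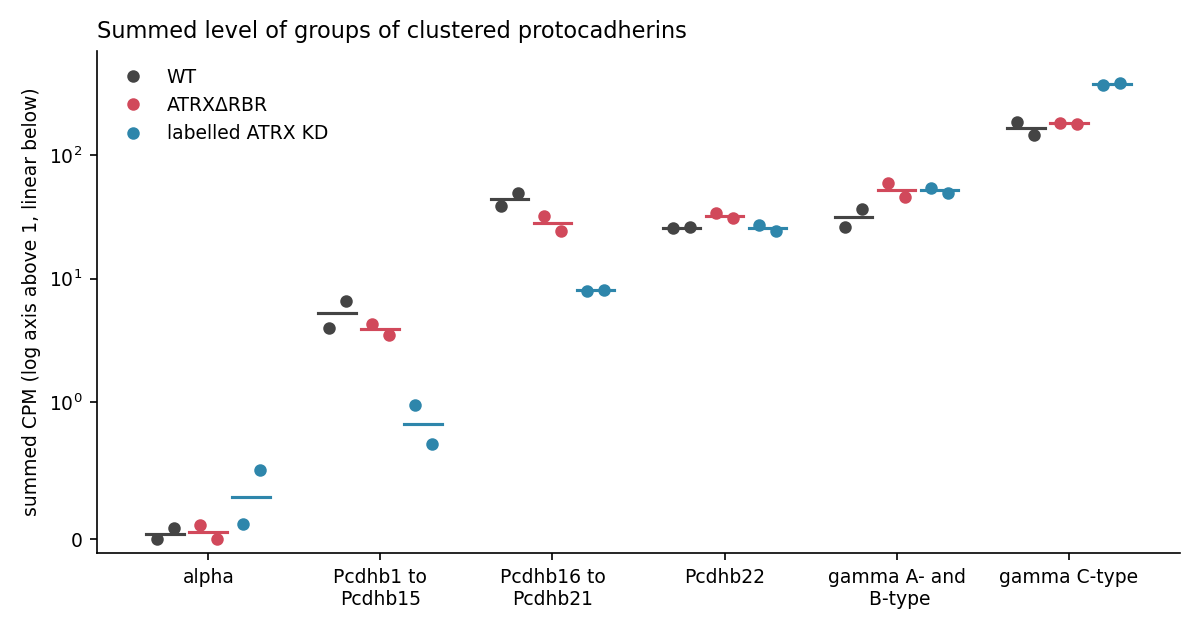
Summed CPM of groups of members in each library (points) with the mean of the 2 libraries (line), on an axis that is logarithmic above 1 and linear below. Beta genes other than Pcdhb22 are lowest in the libraries labelled ATRX KD, and C-type gamma RNA is highest there at 370 and 383 CPM.

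A direct comparison of the libraries labelled ATRX KD with ATRXΔRBR, added after the data were seen, tested whether the altered groups differed from each other. Of 33 members tested, 3 were called higher and 9 lower, against 34.7% called of all 16520 genes tested. DESeq2 called 9, against 28.6%. At 5 members the values did not overlap and were higher in the libraries labelled ATRX KD, against 35.6% of all genes, and at 17 they were lower, against 33.3%. Pcdhga7 had the smallest adjusted p, with 8.73 and 10.3 CPM in the libraries labelled ATRX KD against 0.21 and 0.582 in ATRXΔRBR (log2 difference 4.44, SE 0.38, adjusted p = 5.45e-05). Pcdhgb6 differed in the other direction, with 1.2 and 1.16 CPM against 9.66 and 6.32 (log2 difference −2.77, SE 0.33, adjusted p = 0.000363). Pcdhgb7, called higher than WT in both, was not called between them (log2 difference −0.5, SE 0.21, adjusted p = 0.0986). Pcdhb17 and Pcdhb20 were lower in the libraries labelled ATRX KD than in ATRXΔRBR by 1.81 and 2.28 on the log2 scale (SE 0.26 and 0.35, adjusted p = 0.000904 and 0.00145 from edgeR).

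CUT&RUN peaks were called by the authors in each library separately. With 2 lists per genotype an exact permutation test cannot reach 0.05, so values of each list are given without a test. The study names 2 different antibodies for H3K27me3 in separate places, and which applies here is unknown. The lists do not state read depth, which affects how many peaks are called and how wide they are. A member had a peak at its TSS (transcription start site) when the peak reached into the 2 kb on either side by 1 bp or more.

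No ATRX peak lay within the clusters in any of the 4 lists. Of 21938 protein-coding genes, 12% and 5.7% had an ATRX peak at the TSS in the WT lists and 13.6% and 4.91% in the ATRXΔRBR lists, but 0 of 58 members did. Loss of an ATRX peak from both WT lists in both ATRXΔRBR lists was found at 0.424% of protein-coding genes. Members had no WT peak to lose. Within 20 kb of the clusters, ATRX peaks lay beyond the 3′ end of the gamma cluster, at chr18:37860980-37861131 in WT replicate 1, chr18:37849632-37849807 in WT replicate 2 and chr18:37860883-37861281 in ATRXΔRBR replicate 1.

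EZH2 peaks over the clusters were at most 2.13 kb wide. They covered 0.672% and 0.487% of the span in WT, against 0.665% and 0.557% of the genome. Few lay at the TSS of members. In WT 7 and 6 members had an EZH2 peak at the TSS, or 12.1% and 10.3%, where 50.6% and 46.8% of protein-coding genes did. The numbers were 7 and 3 in ATRXΔRBR, where 49.2% and 35% of protein-coding genes had a peak, and 0 and 1 in the libraries labelled ATRX KD, where 19.4% and 24.8% did. The peak of Pcdhgc3, the most expressed member, was present in all 4 WT and ATRXΔRBR lists. It covered chr18:37806194-37807288 in WT replicate 1, with the TSS at 37806364, and was 2.13 kb and 1.07 kb wide in ATRXΔRBR. Neither list labelled ATRX KD had an EZH2 peak there, and no list of any genotype had H3K27me3 there.

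In both WT lists EZH2 also lay at Pcdha11 (ENSMUSG00000102206), Pcdhac2, Pcdhb5 and Pcdhb6. These 4 genes also had H3K27me3 at the TSS in both WT lists. Pcdhac2 lost the EZH2 peak in both ATRXΔRBR lists, and was the single member with such a loss of the 5 with EZH2 in both WT lists. Of protein-coding genes with EZH2 in both WT lists, 2.66% lost it in this way, or 1.19% of all. All 5 members had no EZH2 peak in either list labelled ATRX KD, against 40.9% of protein-coding genes with EZH2 in both WT lists. The EZH2 lists labelled ATRX KD held 5376 and 7093 peaks, against 22316 and 18351 in WT. In these shorter lists an absent peak, as at Pcdhgc3, does not show the absence of EZH2.

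H3K27me3 formed the main chromatin pattern over the clusters. In WT it covered 8.78% and 17.3% of the alpha cluster and 29.1% and 31.3% of the beta cluster, but 0% and 0.129% of the gamma cluster, against 3.77% and 4.34% of the genome. Its widest WT domains lay over the beta genes, with a peak of 19.7 kb at chr18:37322813-37342529 that spans the TSS of Pcdhb6 and Pcdhb7 in replicate 1, and domains of 8.16 to 12.3 kb at Pcdhb11 and Pcdhb14. In WT 20 and 24 members had H3K27me3 at the TSS, or 34.5% and 41.4%, against 15.6% and 16.4% of protein-coding genes. The 18 members with it in both lists were 6 alpha genes, 11 beta genes and Pcdhga1.

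Within the WT beta cluster, the 11 genes with H3K27me3 at the TSS in both lists had mean WT TPM between 0.025 and 4.64, with a median of 0.24. The 5 genes with it in 1 list were lower, between 0 and 0.155, with a median of 0.045. The 6 genes with none in either list had between 0.035 and 10.5, with a median of 1.98. The ranges overlapped: Pcdhb17 and Pcdhb21, among the highest beta genes, had H3K27me3 in both lists, and Pcdhb1, with 1 count in all, had it in neither. All 21 gamma genes other than Pcdhga1 had none. Most alpha genes were without reads whether or not they had the mark.

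In ATRXΔRBR the H3K27me3 peaks over the clusters were fewer and differently placed, while the lists as a whole were of like size. The WT lists held 36011 and 38832 peaks and the ATRXΔRBR lists 38651 and 33105, which covered 5.41% and 4.65% of the genome. Coverage of the alpha cluster was 1.67% and 0.803%, or 0.0949 times the WT mean, and that of the part from Pcdhb1 to Pcdhb15 was 12.2% and 9.07%, against 34.2% and 36.7% in WT. Over the domain that WT replicate 1 had at Pcdhb6 and Pcdhb7, WT replicate 2 had separate peaks of 7.04 kb, 4.61 kb (Pcdhb6) and 5.56 kb (Pcdhb7). The ATRXΔRBR lists had peaks of 4.48 kb and 5.45 kb there, with 2.75 kb and 2.94 kb at Pcdhb6 and none at Pcdhb7. No peak lay between the alpha and beta clusters, where WT had 4 and 7 peaks. In the alpha cluster, from Pcdhb1 to Pcdhb15 and between alpha and beta, both WT lists had higher coverage than both ATRXΔRBR lists. Single peaks of the genotypes did overlap in position.

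Towards the 3′ end the difference had the opposite sign. The part from Pcdhb16 to Pcdhb22 was covered to 7.13% and 7.8% in WT and to 31.6% and 22.9% in ATRXΔRBR. Between the beta and gamma clusters, coverage was 7.72% and 7.06% in WT and 15.5% and 13.5% in ATRXΔRBR. The start of the gamma cluster, from Pcdhga1 up to Pcdhgb1, was covered to 0% and 1.26% in WT and to 31.8% and 25.1% in ATRXΔRBR, through a domain of 10.1 kb at chr18:37657565-37667656 in replicate 1 and of 7.82 kb in replicate 2. From Pcdhga4 to the end of the gamma cluster no list of any genotype had an H3K27me3 peak. These parts of the clusters were delimited after the lists were seen.

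**Figure D4:**
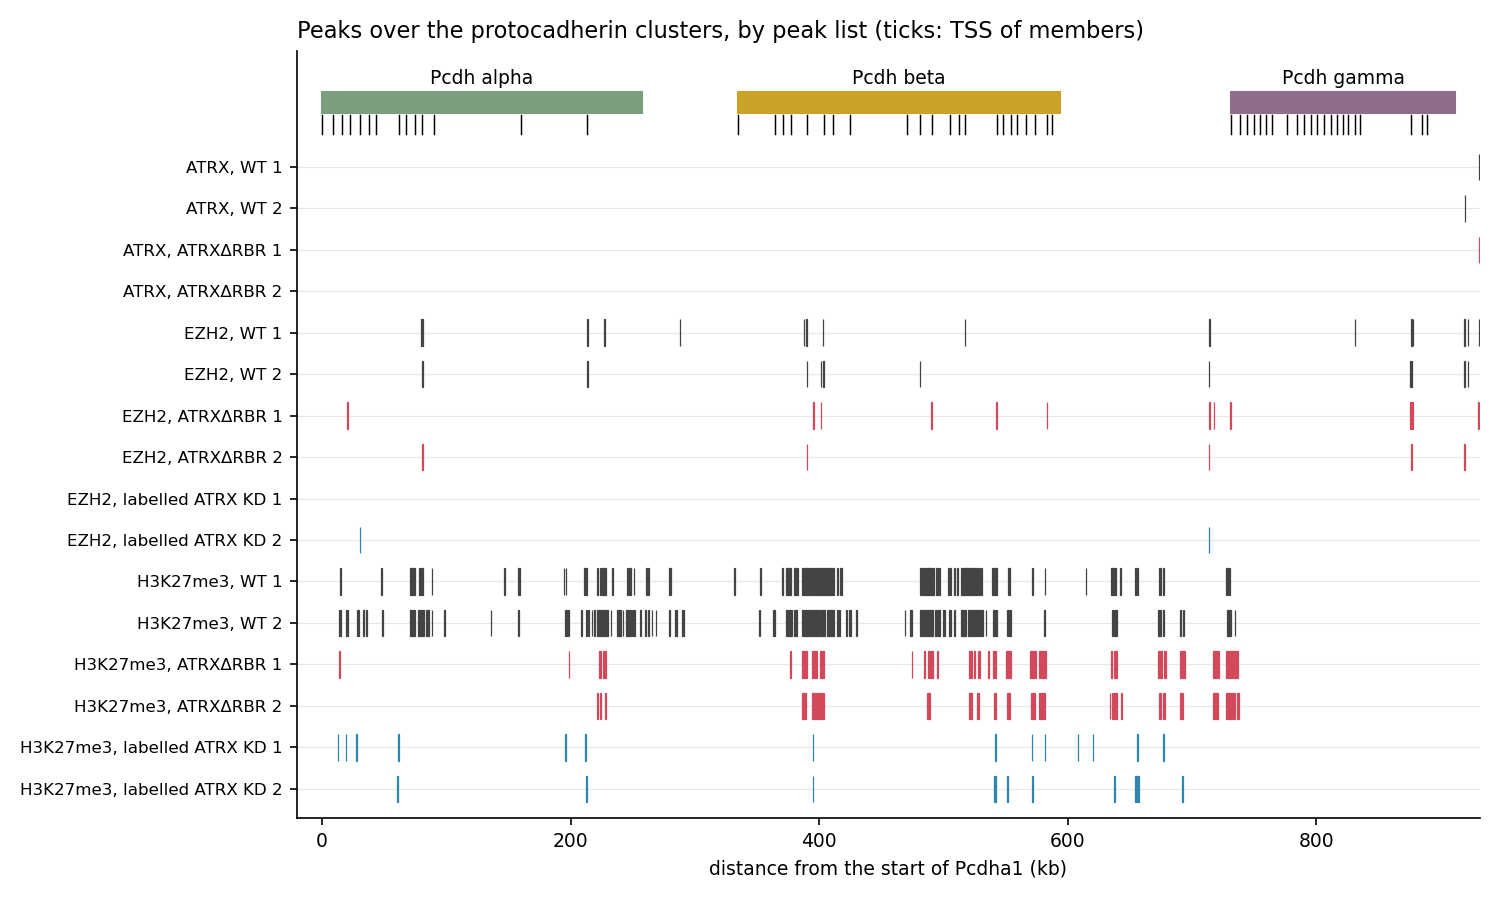
Position of every peak over the clusters (bars, drawn at least a hairline wide) in each of the 16 peak lists, as the distance in kb from the start of Pcdha1, with the clusters and the TSS of their members on top. ATRX peaks appear at the right edge, beyond the gamma cluster. H3K27me3 domains of WT lie over alpha and the 5′ part of beta, and those of ATRXΔRBR extend into the end of beta and the start of gamma.

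At the TSS, 9 of the 18 members with H3K27me3 in both WT lists had none in either ATRXΔRBR list, which is 50% against 29.2% of protein-coding genes with it in both WT lists, or 4.3% of all protein-coding genes. They were 5 alpha genes (both Pcdha11 identifiers, Pcdha12, Pcdhac1 and Pcdhac2) and 4 beta genes (Pcdhb7, Pcdhb10, Pcdhb12 and Pcdhb14). Pcdhb20 and Pcdhga2 gained it in both ATRXΔRBR lists, a pattern found at 3.63% of all protein-coding genes. For Pcdhb20, with its TSS at 37504264, WT replicate 1 had a peak at chr18:37501415-37502083, just outside the 2 kb window. H3K27me3 was kept in both lists of both genotypes at 6 genes, namely Pcdhb5, Pcdhb6, Pcdhb15, Pcdhb17, Pcdhb21 and Pcdhga1.

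RNA of the genes that lost the mark in ATRXΔRBR was low in both genotypes. Of these 9 genes, 5 (all alpha) were at 0 counts in all 6 libraries and 3 (Pcdhb7, Pcdhb12 and Pcdhb14) had enough counts to be tested. None was called by edgeR, DESeq2 gave no call either (with no adjusted p for Pcdhb12), and their edgeR unadjusted p-values were 0.809, 0.217 and 0.878. Pcdhb14 had 0.841 and 0.668 CPM in WT and 0.945 and 0.509 in ATRXΔRBR. Pcdhb20, which gained a peak within the 2 kb window, had 9.41 and 8.43 CPM in WT and 6.3 and 5.6 in ATRXΔRBR (log2 fold change −0.58, SE 0.25, adjusted p = 0.232). Pcdhga2, the other gene with a gain, had 0 and 8 counts in WT and 12 and 4 in ATRXΔRBR. Its log2 fold change was 1.16 (SE 1.17, adjusted p = 0.646 by edgeR), so neither gene was called. The relation between the mark and RNA across members was not tested.

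The lists labelled ATRX KD were short as a whole, with 7241 and 6336 H3K27me3 peaks that covered 0.232% and 0.204% of the genome. Over the clusters they held 14 and 9 peaks, which covered 0.917% and 0.947% of the span. This was 0.0667 times the WT mean, against 0.0538 times for the whole genome, while from Pcdhb16 to Pcdhb22 the ratio was 0.405. H3K27me3 was at the TSS of 4 members in each list, and Pcdha8, Pcdhac2 and Pcdhb15 had it in both. Of the 18 members with H3K27me3 in both WT lists 83.3% had none in either list labelled ATRX KD, against 58.8% of protein-coding genes, or 8.64% of all. Pcdha8 had it in both lists labelled ATRX KD and in neither WT list, as did 0.328% of protein-coding genes. In these shorter lists the absence of a peak does not show the absence of the mark.

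**Figure D5:**
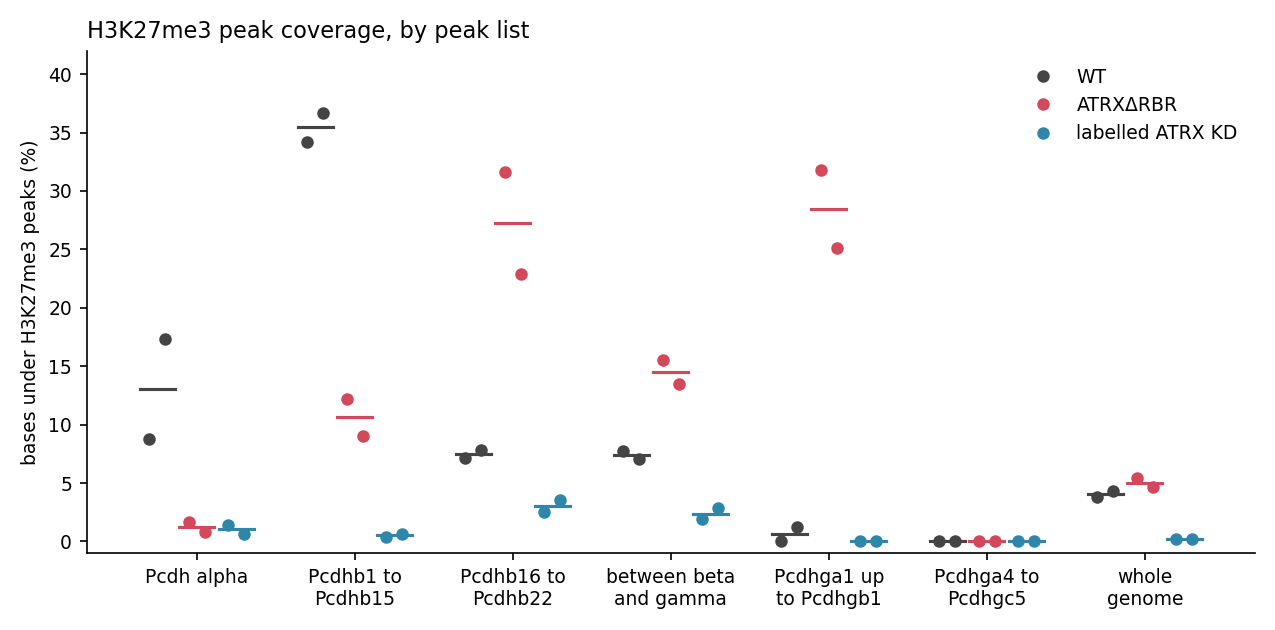
Percentage of the bases of each part of the clusters, and of the whole genome, that lay under H3K27me3 peaks in each peak list (points), with the mean of the 2 lists (line). WT is highest over alpha and Pcdhb1 to Pcdhb15, and ATRXΔRBR over Pcdhb16 to Pcdhb22 and the start of gamma.

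Promoter composition differed between member types. In the 300 bases around the TSS (250 before and 50 after, read from the GRCm38 genome), the median GC content was 38.7% in alpha, 39.5% in beta and 42.2% in gamma genes, against 55% in protein-coding genes. The C-type genes were the richest members, with 62% at Pcdhgc3, 60.7% at Pcdhac1, 54.7% at Pcdhgc5 and 52.3% at Pcdhac2, while Pcdhgc4 had 47.3%. The ratio of observed to expected CpG was over 0.6 at 9 of 14 alpha, 3 of 22 beta and 10 of 22 gamma genes, against 44.3% of protein-coding genes. Pcdhb22, the most expressed beta gene, had no CpG in this window, and Pcdhgc3 had 22. The annotated TSS of Pcdhb22 (37517871) lies within the exon of Pcdhb21 (chr18:37513621-37518325). The window of Pcdhb22 is therefore Pcdhb21 exon sequence, and whether transcription starts there in these cells was not tested.

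Genes inside and next to the clusters were examined for the same libraries. Of 27 other genes annotated between the first and last member, 6 were tested. Taf7, a subunit of the general transcription factor TFIID encoded between beta and gamma, had 14.1 and 16.4 CPM in WT, 8.61 and 11 in ATRXΔRBR cells and 24 and 21.6 in the libraries labelled ATRX KD, where it was called higher (log2 fold change 0.57, SE 0.17, adjusted p = 0.036 by edgeR). That call was lost with DESeq2 (adjusted p 0.0762) and without either library labelled ATRX KD. None of the 6 was called in ATRXΔRBR by edgeR or DESeq2, with 2 at an unadjusted p under 0.05. BC037039 is annotated antisense to Pcdhgc3, and without the strand setting of the counting its reads cannot be told apart from those of Pcdhgc3. Among 27 protein-coding genes within 500 kb that were in the RNA-Seq files, 24 were tested. AC115631.1 and Apbb3, also within 500 kb, were not in those files. Hbegf, a growth factor of the EGF family, fell in ATRXΔRBR from 177 and 144 CPM to 33.9 and 45.9 (log2 fold change −1.99, SE 0.22, adjusted p = 0.00176), and it was the single flanking gene called there by edgeR. It was also lower in the libraries labelled ATRX KD, at 58.6 and 52.5 CPM (log2 fold change −1.54, SE 0.15, adjusted p = 0.000655). There 2 flanking genes were called higher and 5 lower, or 29.2% of those tested, against 33% of all genes.

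The non-clustered protocadherins lie outside the clusters and lack the shared exon structure. Pcdh1 and Pcdh12 are within 500 kb of the clusters and are also counted among the flanking genes. Of 12 genes, 4 had enough reads in each comparison with WT. Pcdh19 had 313 and 248 CPM in WT, 336 and 276 in ATRXΔRBR cells and 341 and 343 in the libraries labelled ATRX KD, and was not called (adjusted p = 0.757 and 0.161 from edgeR). In ATRXΔRBR none of the 4 was called by edgeR or DESeq2, with 2 at an unadjusted p under 0.05. In the libraries labelled ATRX KD the low-level Pcdh1 and Pcdh7 were called lower by edgeR, with 6 and 0 counts left over both libraries, and DESeq2 called neither.

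Of 17 architecture, cohesin and silencing factors that are known to act on the clusters, 0 were called in ATRXΔRBR by edgeR or DESeq2, and 0 had an unadjusted p under 0.05. Their median log2 fold change was 0.01, against −0.02 for all genes. Ctcf, which binds protocadherin promoters, had 185 and 191 CPM in WT and 175 and 161 in ATRXΔRBR. In the libraries labelled ATRX KD, 6 of the 17 were called higher and 2 lower, among them the cohesin release factor Wapl (log2 fold change 0.86, SE 0.12, adjusted p = 0.00266), the DNA methyltransferases Dnmt3a (0.97, SE 0.14, adjusted p = 0.0029) and Dnmt1 (0.4, SE 0.12, adjusted p = 0.0344), and the cohesin subunit Smc3 (−0.42, SE 0.1, adjusted p = 0.0215). The calls of Smc3 and Dnmt1 were lost without either library labelled ATRX KD. The share of 47.1% called stands beside 33% of all genes.

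Proteins that process or transmit protocadherin signals were listed as well. Of the 8 genes for gamma-secretase and its partner sheddase Adam10, 0 were called in ATRXΔRBR by edgeR or DESeq2, and 0 had an unadjusted p under 0.05. In the libraries labelled ATRX KD 3 were called higher by edgeR, against 15.2% of all genes. Of 15 cytoplasmic partners, mostly of the WAVE actin-regulating complex and focal adhesion kinases, 14 were tested. In ATRXΔRBR 1 was called lower, Cyfip2, with 15 and 8 counts in WT and 0 and 1 in ATRXΔRBR (adjusted p = 0.0461 from edgeR, 0.178 from DESeq2). DESeq2 called another, Marcks, with 763 and 396 CPM in WT and 258 and 284 in ATRXΔRBR (adjusted p 0.00241 from DESeq2, 0.0646 from edgeR). In the libraries labelled ATRX KD 4 were called higher and 3 lower by edgeR, or 50% of the 14 tested, against 33% of all genes. The lowest adjusted p was that of Brk1, a WAVE subunit (log2 fold change −1.35, SE 0.16, adjusted p = 0.00134).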

How the data were processed

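Processed files of 6 RNA-Seq libraries and 16 CUT&RUN peak lists were used. The 4 IgG libraries were not analysed here. The authors ran STAR and then RSEM on the RNA-Seq reads, which gave the deposited estimated counts and TPM values of each gene. FPKM, also deposited by the authors, was not used. For CUT&RUN, the authors used Bowtie2 (mm10) and the broad mode of MACS2, library by library. The deposited lists give a score (not used), the fold enrichment (a ratio to background), and −log10 p and −log10 q values, of which the q-value was used in an alternative.

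Estimated counts were rounded. A gene entered a comparison when its 4 libraries summed to over 10 estimated counts. The test was edgeR 4.0.16 in R 4.3.3 (TMM, quasi-likelihood fit, Benjamini-Hochberg adjustment over all genes tested), with calls at an adjusted p under 0.05. CPM was scaled with TMM over all 6 libraries. The p-values measure the spread between 2 libraries per group. DESeq2 1.42.0 was an alternative. The edgeR step was tested on simulated data with changed genes, and the overlap step on simulated peaks. Figures used matplotlib 3.10.9. TSS and genes came from GENCODE M21, matched by gene identifier.

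Named were members called (at most 30), the 5 with the highest mean TPM per cluster, the C-types, members that gained or lost a TSS peak, called genes of the lists (at most 6 per list), and Atrx. Other genes named were chosen after their values were seen. Members and lists were chosen with earlier results of these data known. The values of 1 listed gene are not reported here.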

Additional observations from a re-analysis of the deposited data

How the results depend on the processing

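In ATRXΔRBR against WT, the 3 member calls became 9 without a filter on low counts and 5 in a single fit of all 6 libraries, which all hold the 3, and 4 to 7 when a library was left out. With at least 10 counts in every library Pcdhga7 was not tested and 2 were called. The neighbouring and listed genes called, 2 in the report, were 6, 5, 1 to 7 and 1 under the same changes. In the libraries labelled ATRX KD the 13 member calls ranged from 12 to 15, and the 27 neighbouring and listed calls from 11 (without ATRX KD replicate 2) to 42 (without WT replicate 2), when a library was left out. Over all genes, 1119 calls in ATRXΔRBR became 1979 without a filter, 597 with at least 10 counts in every library and 1812 in the single fit, and 5538 calls in the libraries labelled ATRX KD ranged from 3193 to 8947 when a library was left out. The Pcdhga7 call there was lost without ATRX KD replicate 2. With at least 10 counts in every library, Pcdhb5, Pcdhb16, Pcdhb18 and Pcdhb20 were not tested in the libraries labelled ATRX KD against WT. Pcdhgc4 then lost its call, Pcdhga3 gained one, and 9 members were called in place of 13.

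Replicate numbers are shared between genotypes as numbers, and nothing in the labels pairs the libraries. Differences between replicates correlated across 11428 genes with −0.68 between WT and ATRXΔRBR, −0.14 between WT and ATRX KD, and 0.17 between ATRXΔRBR and ATRX KD. With a replicate block 3 members were called in ATRXΔRBR (1071 genes in all), 14 in the libraries labelled ATRX KD, and 15 between them against 12, and Pcdhgc4 in ATRXΔRBR had a log2 fold change of 0.05. A crossed replicate block, added after the data were seen, gave 15 members (among them Pcdhb16 to Pcdhb20 and Pcdhb22), 30 neighbouring and listed genes and 5585 genes in all in ATRXΔRBR against WT.

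Some log2 fold changes changed sign over the alternative fits, among them those with a library left out. In ATRXΔRBR they ranged from −0.55 to 0.32 at Pcdhb21, −1.20 to 0.29 at Pcdhga4, −2.46 to 2.74 at Pcdhgc4 and −0.07 to 0.50 at Pcdhgb8. In the libraries labelled ATRX KD they ranged from −0.96 to 0.35 at Pcdhgb6, −0.09 to 0.08 at Pcdhb22, −0.65 to 0.03 at Pcdhgb8 and −0.40 to 0.14 at Atrx. The cause was not tested.

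At a q-value of 0.01 or less, the mean number of member TSS with EZH2 in WT was 4 in place of 6.5, and EZH2 covered 0.427% of the span in place of 0.58%. Member TSS with H3K27me3 averaged 22 in WT, 9.5 in ATRXΔRBR and 4 in the libraries labelled ATRX KD. They averaged 18.5, 7 and 1.5 with a window of 1 kb, 11.5, 7 and 1 at that q-value, and 17.5, 5.5 and 3.5 by the midpoint of the peak. At that q-value H3K27me3 covered 3.81%, 0% and 0% of alpha and 24.2%, 9.92% and 0.392% of beta, in the same order. With 20 kb of flank, ATRX peaks covered 0.0172% of the span in WT and 0.021% in ATRXΔRBR, and H3K27me3 covered 26.2% of beta in WT and 1.26% and 6.56% of gamma in WT and ATRXΔRBR. The depth of each single peak list is not known here, and 2 libraries per genotype limit all comparisons.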
